A study of Mus musculus with 2 samples.

Results

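Mitochondrial ribosomal protein genes were described in oocytes, the female germ cells, matured with or without spermidine, a natural polyamine. They were taken as every gene whose symbol begins with MRPL or MRPS and a number, whatever its value, which gave 69 of 38817 genes in the deposited table. The groups were a library labelled SPE, taken as the spermidine-treated one because its column is headed SPD, and a control library. Each was 1 library from a pool of 100 oocytes. The table also holds columns headed Con2 and SPD2, which by name may be a second control and a second spermidine library. They matched no labelled sample and were not used here. The values below therefore compare 2 libraries, Con1 and SPD1, with no replicate error and no test, and whether any difference holds in the unused columns was not analysed. The labels give no dose or time of treatment and no age of the animals, and they name wild-type ICR mouse oocytes for both groups. The series title speaks of porcine oocytes, and the table places its genes on pig chromosomes, 6 of the 69 beyond position 195291439, where the last annotated mouse gene ends. The link between table and labels therefore rests on column names and numbers, and the values were read as pig gene models. No source used here names the genome build of the positions below.

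Mitochondria keep a small genome of their own, and a ribosome inside the organelle translates the few messages it encodes, all of them for subunits of the respiratory chain and the ATP synthase. The RNA of this mitoribosome is made in the organelle, but its proteins are encoded in the nucleus, made in the cytosol and imported. Those of the small subunit hold the messenger RNA and its decoding site, and those of the large subunit surround the peptidyl transferase centre and the exit tunnel. Many have a counterpart in the bacterial ribosome, and others are particular to mitochondria. The oocyte provides the mitochondria of the embryo, and its translation in the organelle depends on this nuclear gene set.

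The values are deposited FPKM, fragments scaled to transcript length and to the mapped fragments of the library. They are scaled to length, so levels can be compared between genes, and they are relative, so that a gene group taking more of a library lowers all others. Genes of the mitochondrial chromosome took 65.7% of the summed FPKM in the SPE library and 62.7% in the control library. The number of fragments behind each value is unknown. Of 12 oocyte marker genes 10 had a mean of at least 1 FPKM, and the list summed to 2553 FPKM in the SPE library and 2715 FPKM in the control library. OOSP2, an oocyte-secreted protein gene, was its highest by that mean, with 730 FPKM in the SPE library and 904 FPKM in the control library. GDF9 went the other way, with 145 FPKM in the SPE library and 78.1 FPKM in the control library. Among the 10 genes with that mean, SPE values exceeded control values for 5, and control values exceeded SPE values for 5. Below 1 FPKM, NLRP5 was at 0.430 FPKM in the SPE library and 0.149 FPKM in the control library. The germ cell gene DDX4 was at 0 FPKM in the SPE library and 0.00694 FPKM in the control library. Of 22 granulosa and cumulus symbols, which mark the somatic cells around the oocyte, 21 were found and 5 reached a mean of 1 FPKM, with all 5 lower in the SPE library. That list summed to 16.1 FPKM in the SPE library and 34.1 FPKM in the control library, with AMH, AREG, EREG, LHCGR, NR5A1 and TNFAIP6 at 0 in both. INHBA, an inhibin subunit gene, was its highest by the mean of both libraries, with 5.55 FPKM in the SPE library and 9.87 FPKM in the control library. INHBB (1.28 and 10.8 FPKM) and HSD3B1 (0.111 and 1.90 FPKM, in the same order) were lower with SPE by 2-fold or more. HSD3B1 reached the mean of 1 FPKM through the control library alone. INHBA and INHBB held most of the summed gap, and their models span 1763 and 349 bases. GATA4 (3.70 and 4.13 FPKM) and KITLG (3.45 and 4.17 FPKM) were closer. Below 1 FPKM the directions were mixed. Of all 4391 genes with the same minimum mean, 2434 were lower in the SPE library, and 2.14% of the 4391 by 2-fold or more. The difference in these somatic markers runs alongside every difference below, and its part in them was not tested. In pooled oocytes, fewer cells of a type and less RNA per cell cannot be told apart.

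As a set, these genes summed to similar levels in both libraries, and most of the set was low. Their FPKM summed to 363 in the SPE library and 370 in the control library. That is 0.420% and 0.398% of the FPKM summed over all genes off the mitochondrial chromosome, in the SPE and the control library. Averaged over both libraries, 27 of the 69 genes reached 1 FPKM (39.1%), against 20.3% of all 14922 genes with an established symbol. These 27 are called measured below. The 10 highest genes alone held 85.1% of the family's sum in the SPE library and 87.9% in the control library. The large subunit contributed 198 FPKM in the SPE library and 218 FPKM in the control library, and the small subunit 165 FPKM and 152 FPKM in the same order of libraries. Without MRPL51 the other members summed to 344 FPKM in the SPE library and 330 FPKM in the control library.

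**Figure D1:**
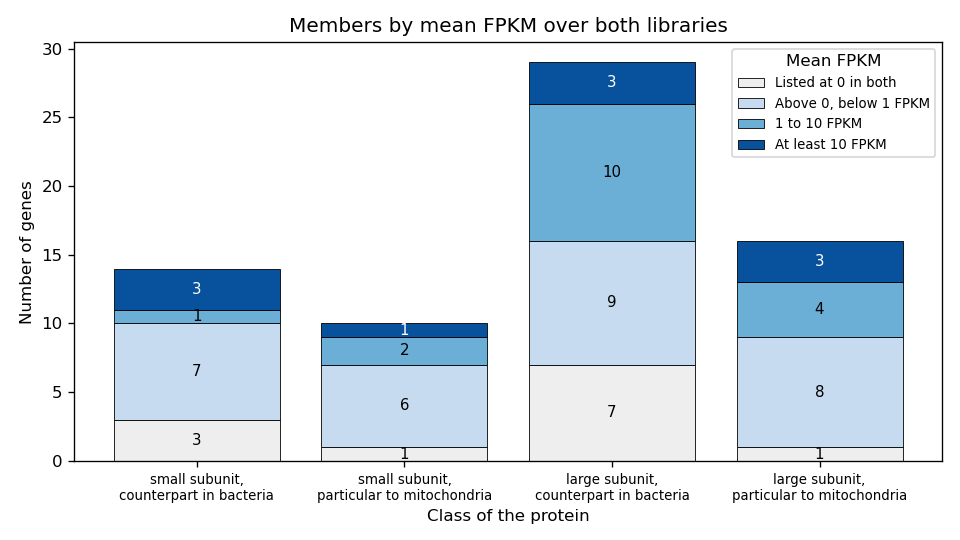
Number of genes (vertical axis) of each class of mitochondrial ribosomal protein, stacked by mean FPKM over the SPE and control libraries. In every class genes below 1 FPKM outnumber the others (42 of 69 genes in all), and 12 genes are listed at 0 in both libraries.

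Differences were expressed as log2((SPE + 1) / (control + 1)), where 1 FPKM is added to steady low values and which understates differences of low genes. On this scale 1 measured member, MRPL36, was higher by 2-fold or more with SPE, and 2, MRPL40 and MRPL51, were lower by 2-fold or more. All 4391 genes of the table with the same minimum mean gave 2.85% higher and 2.14% lower by that rule. Of the 27 members, 16 had the higher value in the SPE library and 11 in the control library, and 19 lay within 1.2-fold on this scale. As shares of genes off the mitochondrial chromosome, the split was 20 and 7. That scaling raises every ratio, and the median log2 ratio of all 4391 genes became 0.05 there. On the deposited scale the median log2 ratio of the 27 members was 0.02, beside -0.04 over all 4391 genes. With ratios centred on that overall median, MRPL51 came to -0.99, which leaves 1 member higher and 1 lower by 2-fold.

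**Figure D2:**
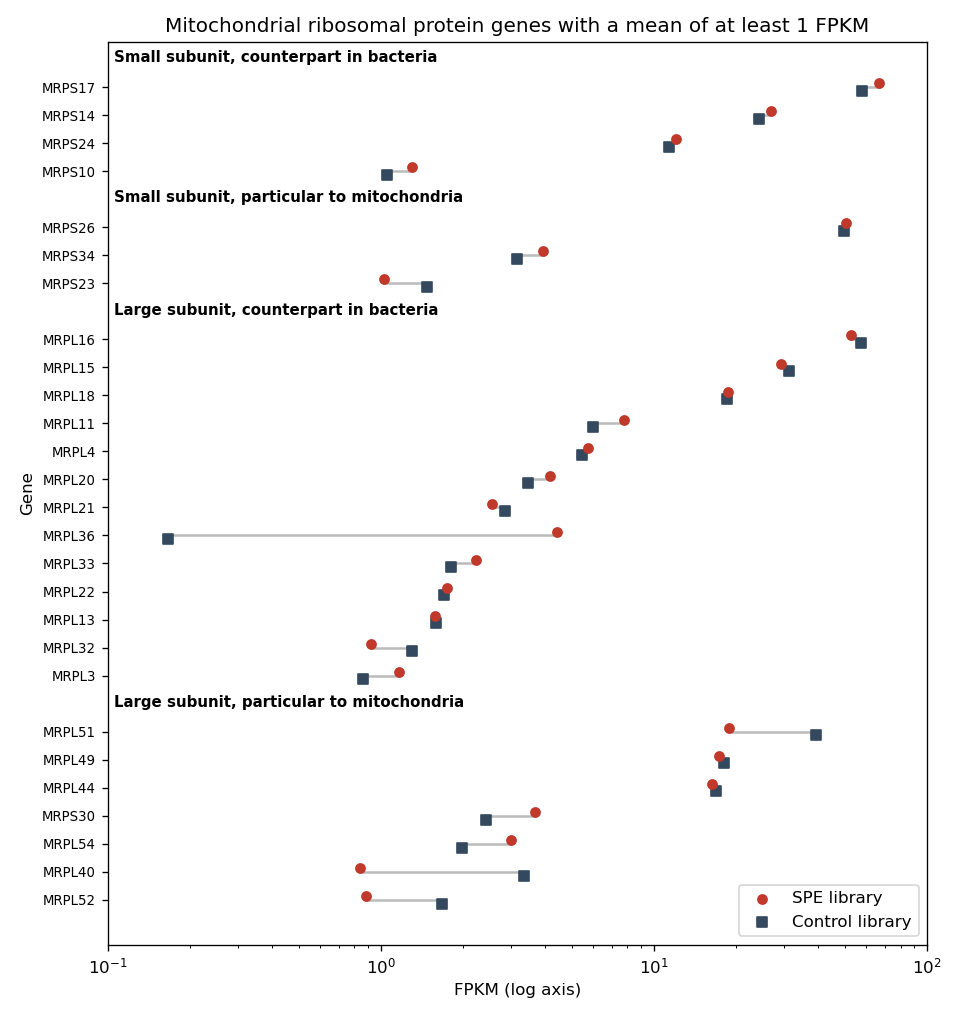
FPKM (log axis) of the 27 measured genes in the SPE library (circles) and the control library (squares), grouped by subunit and by whether the protein has a bacterial counterpart. MRPL36, MRPL40 and MRPL51 have the widest gaps, and the pairs of MRPL18, MRPL13 and MRPS26 nearly coincide.

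Of 24 small subunit genes found, 7 were measured, and 6 of these were higher in the SPE library, although 6 lay within 1.2-fold on the log2(FPKM + 1) scale. Of all 4391 genes with the same minimum mean, 1957 were higher in the SPE library. The median log2 ratio of the 7 small subunit genes was 0.14. The signs of these 7 genes were the same on the TPM scale, after centring and as shares of genes off the mitochondrial chromosome. Centring and such shares raise every ratio, so the 6 higher genes could not turn there and their signs are no support for the split.

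MRPS17, the counterpart of a bacterial protein that binds the ribosomal RNA of the small subunit, was the highest member, at 66.5 FPKM in the SPE library and 58.0 FPKM in the control library (log2 ratio 0.19). Its model lies on chromosome 3 (17236802 to 17241316) and ranks 209 by mean level among all genes off the mitochondrial chromosome. MRPS14, in the head of the small subunit, was at 26.9 FPKM in the SPE library and 24.3 FPKM in the control library (0.14). Its locus of 259921 bases also holds CACYBP, so fragments may have been divided between genes there. MRPS24, the counterpart of a bacterial protein at the entry of the messenger RNA channel, was at 12.1 FPKM in the SPE library and 11.3 FPKM in the control library (0.08). MRPS10, also with a bacterial counterpart, was just above the threshold, at 1.30 FPKM in the SPE library and 1.05 FPKM in the control library (0.17), over a locus shared with TRERF1. All 4 of these genes were thus slightly higher in the SPE library.

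The other 3 measured small subunit genes encode proteins particular to mitochondria. MRPS26, encoded on chromosome 17 (36999771 to 37001920), came to 50.6 FPKM in the SPE library and 49.8 FPKM in the control library (log2 ratio 0.02), the third highest of the family. MRPS34, which is mutated in a human mitochondrial disease, was at 3.93 FPKM in the SPE library and 3.15 FPKM in the control library (0.25). MRPS23 was the 1 measured small subunit gene with a lower value in the SPE library, at 1.03 FPKM against 1.48 FPKM in the control library (-0.29), over a locus shared with CUEDC1. Levels in this class thus differed far more between genes than between the libraries.

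Of 45 large subunit genes found, 20 were measured, of which 10 had the higher value in each library. As shares of genes off the mitochondrial chromosome, 14 were higher and 6 lower with SPE, as MRPL13, MRPL15, MRPL44 and MRPL49 changed sign. The median log2 ratio was -0.003 on the deposited scale, 0.03 after centring and 0.07 as such shares. Over all 4391 genes with the same minimum mean, the median as such shares was 0.05. All 3 members beyond 2-fold belonged to this subunit, whose measured genes spanned log2 ratios of -1.24 to 2.22, while those of the small subunit spanned -0.29 to 0.25. Whether the subunits differ was not tested.

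Among the large subunit genes with a bacterial counterpart, 3 stood at 10 FPKM or more. MRPL16, whose counterpart lies beside the transfer RNAs near the peptidyl transferase centre, was at 52.8 FPKM in the SPE library and 57.5 FPKM in the control library (log2 ratio -0.12). Its model is on chromosome 2 (11088778 to 11093513). MRPL15 was at 29.1 FPKM in the SPE library and 31.2 FPKM in the control library (-0.09). MRPL18, the counterpart of a bacterial protein that binds the small ribosomal RNA of the large subunit, was at 18.6 FPKM in both libraries (0.0009). All 3 lay within 1.2-fold.

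MRPL11, at the base of the stalk that meets the translation factors, was at 7.75 FPKM in the SPE library and 6.01 FPKM in the control library (log2 ratio 0.32). MRPL4, a protein of the exit tunnel wall in bacteria, was at 5.73 FPKM in the SPE library and 5.47 FPKM in the control library (0.06). MRPL20, whose bacterial counterpart acts early in subunit assembly, was at 4.15 FPKM in the SPE library and 3.45 FPKM in the control library (0.21). MRPL21 was at 2.56 FPKM in the SPE library and 2.86 FPKM in the control library (-0.12). All 4 lay inside 2-fold.

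MRPL36 had the largest ratio of the family. It encodes the counterpart of one of the smallest proteins of the bacterial large subunit and lies on chromosome 16 (85607048 to 85608340). Its level was 4.42 FPKM in the SPE library and 0.166 FPKM in the control library (log2 ratio 2.22). Without the pseudocount the log2 ratio was 4.73, and with one of 5 FPKM it was 0.87. The control value lies far below the threshold, so this gene was measured through the SPE library alone.

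The remaining 5 measured genes of this class were between 0.864 and 2.23 FPKM in every library. MRPL33 was at 2.23 FPKM in the SPE library and 1.80 FPKM in the control library (log2 ratio 0.21). MRPL22, whose counterpart lines the exit tunnel, was at 1.74 FPKM in the SPE library and 1.71 FPKM in the control library (0.02). MRPL13 was at 1.58 FPKM in the SPE library and 1.59 FPKM in the control library (-0.007). MRPL32, which a protease of the inner membrane trims before it enters the ribosome, was at 0.923 FPKM in the SPE library and 1.30 FPKM in the control library (-0.26). MRPL3, whose counterpart reaches towards the peptidyl transferase centre, was at 1.16 FPKM in the SPE library and 0.864 FPKM in the control library (0.22). All 5 thus stayed well inside 2-fold.

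Of the 7 measured large subunit genes particular to mitochondria, 5 were lower and 2 higher in the SPE library, with a median log2 ratio of -0.05. This direction turned as shares of genes off the mitochondrial chromosome, where 3 were lower and 4 higher (median 0.05). The median of all 4391 genes with the same minimum mean was also 0.05 as such shares. The class summed to 63.7 FPKM in the SPE library and 84.1 FPKM in the control library over all 16 genes found. MRPL51 was at 18.8 FPKM in the SPE library and 39.2 FPKM in the control library (log2 ratio -1.03), a difference of SPE minus control of -20.5 FPKM, which is about that of the whole class. Its model spans 332 bases on chromosome 5 (66630184 to 66630515), the shortest among the members. As shares of genes off the mitochondrial chromosome its log2 ratio was -0.92, inside 2-fold. MRPL40, which lies in the human region deleted in the DiGeorge syndrome, was at 0.838 FPKM in the SPE library and 3.34 FPKM in the control library (-1.24). Its model is on chromosome 14 (54669933 to 54672802). It passed the minimum mean through the control library alone. Both MRPL51 and MRPL40 kept the same direction under every pseudocount and scaling tried, but this is no support for them. A pseudocount cannot turn a direction, and the scalings changed the balance between the libraries only slightly.

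MRPL49 was at 17.4 FPKM in the SPE library and 18.1 FPKM in the control library (log2 ratio -0.05), over a locus shared with FAU, SYVN1, TM7SF2 and ZNHIT2. MRPL44, which carries a fold related to ribonuclease III, was at 16.3 FPKM in the SPE library and 16.9 FPKM in the control library (-0.04). MRPS30, named for the small subunit but part of the large one, was at 3.68 FPKM in the SPE library and 2.43 FPKM in the control library (0.45), on an unplaced scaffold. MRPL54 was at 2.99 FPKM in the SPE library and 1.99 FPKM in the control library (0.42). MRPL52 was at 0.884 FPKM in the SPE library and 1.68 FPKM in the control library (-0.51). The 2 genes above 10 FPKM were thus nearly equal in the libraries, and the 3 lower ones were further apart and differed in direction.

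Over both subunits, 12 of 17 measured genes with a bacterial counterpart were higher in the SPE library (median log2 ratio 0.08). Of the 10 measured genes particular to mitochondria 4 were higher (median -0.05). The same count over all genes with that minimum mean was 1957 of 4391 (median -0.04). As shares of genes off the mitochondrial chromosome 14 of the 17 and 6 of the 10 were higher, with medians of 0.18 and 0.05. That scaling raises every ratio, and the median over all 4391 genes was then 0.05. Whether the classes differ was not tested.

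The spread between the libraries was smaller at high levels. Of the 10 members with a mean of at least 10 FPKM, 9 had log2 ratios between -0.12 and 0.19, and MRPL51 was the exception. Over all 1097 genes of that level the 5th and 95th percentiles were -0.46 and 0.49, and 2.19% lay at or beyond 2-fold in either direction. The 17 members between 1 and 10 FPKM reached from -1.24 to 2.22, with 1 higher and 1 lower by 2-fold, in a range of levels where 5.92% of 3294 genes lay beyond 2-fold.

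**Figure D3:**
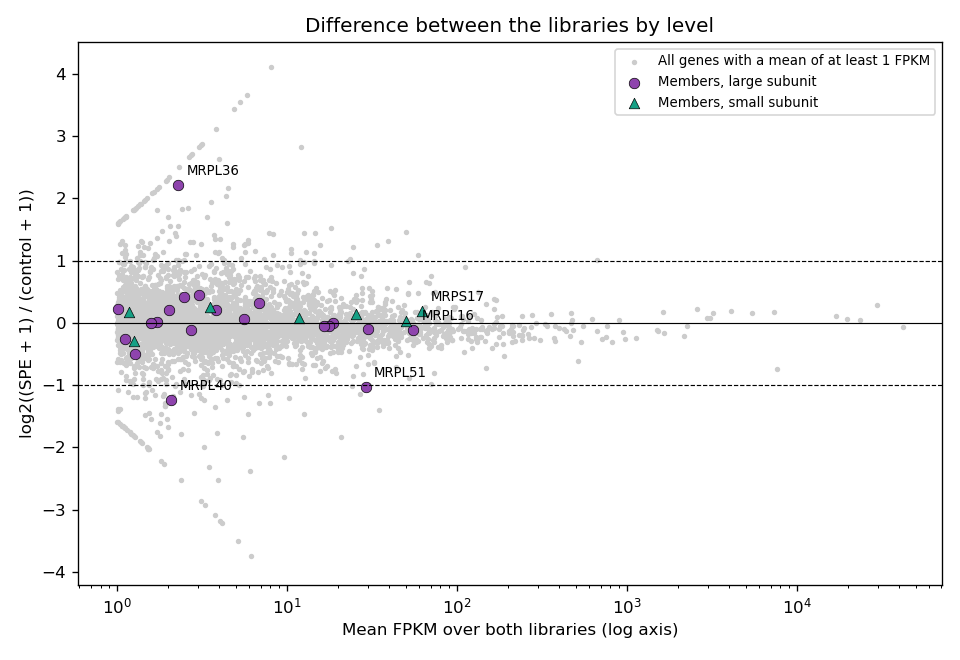
Log2 ratio of SPE over control, with 1 FPKM added, against mean FPKM (log axis) for the measured members (large subunit circles, small subunit triangles) and all 4391 genes that passed the same minimum (grey). Dashed lines mark 2-fold; MRPL36 lies above them, MRPL40 and MRPL51 below, and the 9 other members of at least 10 FPKM lie close to 0.

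All 3 members beyond 2-fold had short gene models. Their spans in the genome were 332 bases for MRPL51, 1293 bases for MRPL36 and 2870 bases for MRPL40. Of the 27 measured members 6 spanned under 3 kb, and these 3 were among them; the other 3 were MRPS26, MRPS34 and MRPL11. None of the 21 measured members of 3 kb or more reached 2-fold, on this scale. Over all genes of the table at that minimum, 20.2% of the 694 with models under 3 kb lay at or beyond 2-fold, against 2.14% of the 3697 longer ones. The part of gene length in these 3 differences was not tested. No other gene of the table overlapped their loci.

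**Figure D4:**
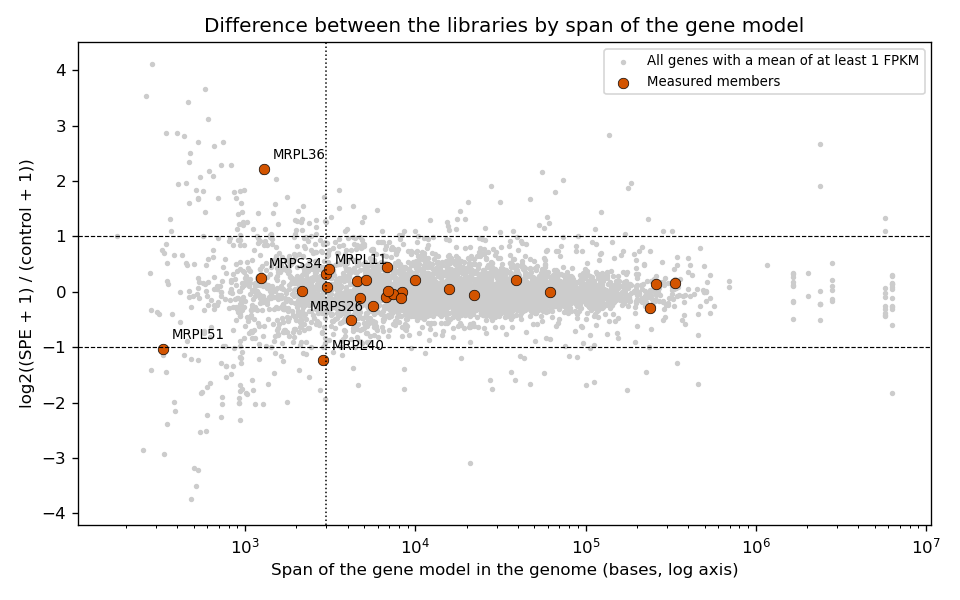
Log2 ratio of SPE over control, with 1 FPKM added, against the span of the gene model in the genome (bases, log axis) for the 27 measured members and all 4391 genes that passed the same minimum (grey). The dotted line marks 3 kb; the 3 members beyond the dashed 2-fold lines all lie to its left.

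The 42 members below a mean of 1 FPKM summed to 7.08 FPKM in the SPE library and 4.49 FPKM in the control library. Of these MRPS22, of the small subunit, was the 1 gene that reached 1 FPKM in either library, at 0.783 FPKM in the SPE library and 1.04 FPKM in the control library (log2 ratio -0.20). The next was MRPL50, of the large subunit, at 0.992 FPKM in the SPE library and 0.310 FPKM in the control library (0.61). MRPS36, at 0.0140 FPKM in the SPE library and 0.0139 FPKM in the control library, keeps its name although its protein was later assigned to the 2-oxoglutarate dehydrogenase complex. Of the 30 low members above 0 in at least 1 library, 18 had the higher value in the SPE library and 12 in the control library.

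More members had a value above 0 in the SPE library, 55 against 48 in the control library. Members above 0 in the SPE library alone numbered 9, which are MRPL46, MRPL45, MRPS18C, MRPL53, MRPL35, MRPL9, MRPL10, MRPL24 and MRPS33, all at or below 0.552 FPKM there. Members above 0 in the control library alone were MRPL55, at 0.480 FPKM, and MRPL1, at 0.0113 FPKM. The whole table had the same tilt, with 3051 genes above 0 in the SPE library alone and 1576 in the control library alone. All these values lie below 1 FPKM, and the zeros may be failed estimates.

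Zeros in both libraries were listed for 12 of the 69 members, and for 4615 of all 14922 genes with an established symbol. On the large subunit these were MRPL2, MRPL12, MRPL17, MRPL27, MRPL28, MRPL30, MRPL34 and MRPS18A, and on the small subunit MRPS2, MRPS11, MRPS15 and MRPS25. MRPL12, for example, is the mitochondrial form of the stalk protein that recruits translation factors. Of 72 cytosolic ribosomal protein genes, 15 were also listed at 0 in both libraries. Whether a listed 0 is absent RNA or a failed estimate was not tested, and it is not read here as a measured absence. MRPS11 and MRPL46 are neighbours on chromosome 1 with 33 bases between their loci, and of this pair MRPS11 was listed at 0 in both libraries and MRPL46 was at 0.552 FPKM in the SPE library and 0 in the control library. It was the closest pair of members, as the next, MRPL38 and MRPS7 on chromosome 12, had 378510 bases between them. The loci lay on 16 chromosomes, with the most on chromosome 3 (10 genes), and 4 members lay on unplaced scaffolds.

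The other genes that serve the mitoribosome were mostly low as well, and no measured one of them reached 2-fold. Of all 4391 genes with the same minimum mean, 4.99% did. Of mitoribosomal proteins with another kind of symbol, 3 of 5 found were measured. PTCD3, a small subunit protein of the pentatricopeptide repeat family, was highest, at 3.11 FPKM in the SPE library and 3.54 FPKM in the control library (log2 ratio -0.15), and AURKAIP1 was listed at 0 in both. Of 22 mitoribosome assembly genes found, 6 were measured, 2 higher and 4 lower in the SPE library (median -0.14). FASTKD2, an RNA-binding protein needed for the large subunit, was the highest, at 8.03 FPKM in the SPE library and 6.72 FPKM in the control library (0.23).

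Of 13 mitochondrial translation factor genes found, 1 was measured, MTFMT, which formylates the initiator transfer RNA, at 1.77 FPKM in the SPE library and 1.65 FPKM in the control library (log2 ratio 0.06). Of 16 genes of mitochondrial RNA synthesis and processing 4 were measured, all 4 lower in the SPE library (median -0.15, range -0.24 to -0.01). Of all 4391 genes with the same minimum mean, 2434 were lower. Ratios as shares of genes off the mitochondrial chromosome were not computed for this list. Its summed FPKM made 0.0145% of that total in the SPE library and 0.0149% in the control library. SUPV3L1, the helicase of the mitochondrial RNA degradosome, was the highest of this list, at 4.92 FPKM in the SPE library and 5.997 FPKM in the control library (-0.24). TFAM, the factor that packages mitochondrial DNA and helps to start its transcription, was listed at 0 in both libraries. A mean of at least 10 FPKM was thus reached by none of these genes and by 10 of the 69 mitochondrial ribosomal protein genes. Of all 14922 genes with an established symbol, 769 reached it.

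**Figure D5:**
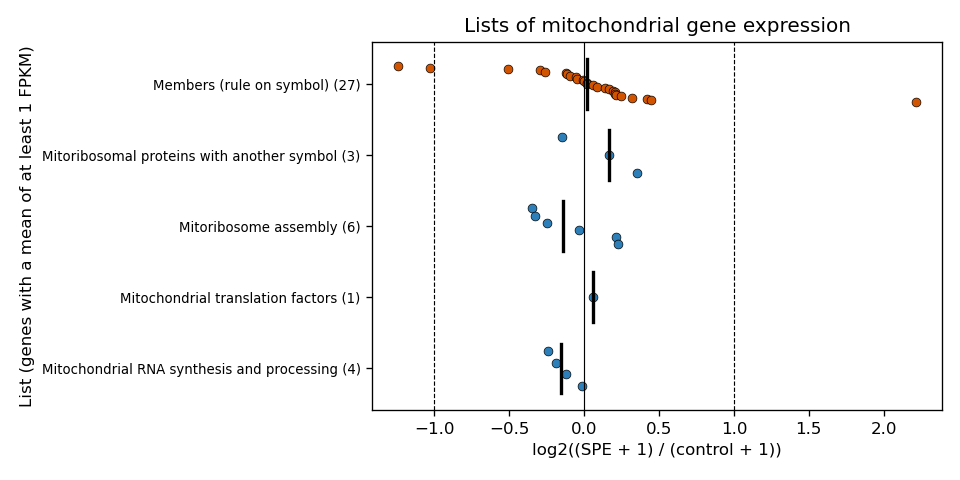
Log2 ratio of SPE over control, with 1 FPKM added, for each measured gene (points) of the family and of 4 lists of mitochondrial gene expression, with the median of each list as a black bar and the number of genes in brackets. Beyond the dashed 2-fold lines lie only MRPL36, MRPL40 and MRPL51.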

How the data were processed

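Per the labels' protocols, each library came from the RNA of 100 oocytes, prepared with a NEB Ultra kit for an Illumina HiSeq. The authors deposited 1 table of FPKM values, a unit read from its name. Bowtie2 2.2.5, RSEM and the mouse build mm9 stand in the submitters' processing notes, although the loci are those of pig chromosomes; no source used here names the program, annotation and build behind the table. Strand use and the division of reads between overlapping genes are likewise not given, and 18 of the 69 members overlap another gene.

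By name, Con1 was taken as the control and SPD1 as the SPE library. 2 further columns of values, Con2 and SPD2, matched no labelled sample and were not used, although by name they may be second replicates. With 1 matched library per group no test was made. Read depth is unknown. Among the 5128 genes with both values from 0.005 to 0.3 FPKM, SPE values were most often 1.026 times control values (227 genes, tolerance 0.001), which does not settle it.

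Computed here were log2 ratios with a pseudocount of 1 FPKM, over genes averaging 1 FPKM or more, and counts at or beyond 2-fold. Zero-based starts were raised by 1. Of 78 symbols listed by subunit, 9 matched no row and are not analysed here. All measured members are named, and of other lists the highest gene and measured genes at or beyond 2-fold. AURKAIP1, TFAM, DDX4, GDF9, NLRP5, GATA4, KITLG and the somatic markers at 0 were named after their values were seen. Members and lists were chosen with earlier results of these data known. Mouse sequences were not used for these pig loci. Alternatives covered pseudocounts, filters, scalings, gene length, overlaps and fold rules. The calculation was tested on simulated data, in which genes of at least 10 FPKM were changed 4-fold. The noise there was the same at every level and gene length. That test therefore does not bear on calls of low genes or short models. Python 3.11.15, pandas 2.3.3, numpy 2.4.6 and matplotlib 3.10.9 were used.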

Additional observations from a re-analysis of the deposited data

How the results depend on the processing

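No paired analysis was possible because each group has 1 library matched to a labelled sample, with the columns Con2 and SPD2 left out. The count of members higher with SPE by 2-fold (1 as reported) was 0 with a pseudocount of 5 FPKM, at a mean of at least 10 FPKM, and with gene models of at least 3 kb. The count lower by 2-fold (2 as reported) was 0 with a pseudocount of 5 FPKM, with models of at least 3 kb and by the 4-fold rule. It was 1 at a mean of at least 10 FPKM, after centring and as shares of genes off the mitochondrial chromosome. The median log2 ratio of the measured members was 0.13 as such shares, where 20 of 27 genes were higher and 7 lower, and between -0.02 and 0.06 under the other settings. Over all 4391 genes with the same minimum mean, the median as such shares was 0.05. These moves follow from the settings: filters leave fewer genes to count, a larger pseudocount shrinks ratios, and centring and such shares raise every ratio. The setting without a pseudocount was chosen after seeing the data. Medians moving by less than 0.1 were taken as unmoved, in place of a replicate error. Measured members numbered 22 with 1 FPKM or more in both libraries and 29 at a mean of 0.5 FPKM, beside 27 as reported. With the depth unknown, no counting error can be given for any member.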
